A study of Schizosaccharomyces pombe with 4 samples.

Results

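The input DNA of a ChIP-chip experiment in fission yeast (Schizosaccharomyces pombe) was compared between cells with tethered Clr4 (ON) and cells without it (OFF). Clr4 methylates histone H3 at lysine 9 to build heterochromatin. The input is whole-cell extract DNA labelled with Cy3, and it was read here alone, without the immunoprecipitated H3-T7 channel. The members are runs of at least 3 neighbouring probes of chromosomes I to III, without a gap over 900 bp, in which ON minus OFF had the same sign in both genotypes. There were 2317 such runs, 1398 with more input in ON (called gained) and 919 with less (called lost), and they held 9258 of 40740 probes.

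The 4 groups, each 1 array, were clr3-CDx2 ON, clr3-CDx2 OFF, wt ON and wt OFF. All cells were H3T7 cdc25-22, the clr3-CDx2 groups with clr3-CDx2 in addition, and the protocol describes a tetO-ade6+ reporter and a TetR-Clr4 protein made under a promoter that thiamine shuts off. Clr3 is a histone deacetylase of silent chromatin. The labels explain neither what CDx2 changes nor where the reporter sits. ON cells grew for 20 generations without thiamine, whereas OFF cells received thiamine at 5 µg/ml and tetracycline at 2.5 µg/ml. All cultures were grown at 26 °C, held for 4 h at 36 °C to arrest them at G2/M, given 1 µM β-estradiol for 2 h to exchange the HA tag of H3 for T7, and fixed with 1% formaldehyde. The medium and the tethering change together, so their effects cannot be told apart. All 4 arrays lay on 1 slide, with the ON arrays beside each other, so place on the slide and state cannot be told apart either.

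Input DNA is the DNA of the fixed, sheared and cleared extract before immunoprecipitation. It is the usual denominator of a ChIP ratio, and its recovery at a locus is known to depend on cross-linking, shearing and amplification as well as on copy number. Fission yeast makes thiamine (vitamin B1) by joining a pyrimidine to a thiazole, and the genes for these steps and for thiamine uptake are repressed when the medium holds thiamine. The promoter of nmt1 ("no message in thiamine") is widely used to switch genes on by growth without the vitamin.

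The highest-ranking lost runs included 2 kinds of loci, thiamine-related genes and the ends of chromosome III, which lie beside the ribosomal DNA (rDNA) repeats. The lost runs were ranked by the sum over probes of the smaller of the differences in the genotypes. Of the 20 highest-ranking, 8 overlapped a thiamine-related gene and 6 lay at the rDNA ends. The 8 lay over the thiamine-repressed genes thi2, bsu1, nmt1, thi9, pho4 and thi4, and over thi201 and SPCC794.03, genes of thiamine synthesis or uptake. The latter 2 are not in the list of 8 thiamine-repressed genes, and they are named because they ranked among the lowest genes here. The runs at the rDNA ends are neighbouring pieces of the left end and the run at the right end, so they are not separate loci. Of all 919 lost runs, 8 lay at the rDNA ends. The share of all lost runs over thiamine-related genes was not counted, so the 8 of 20 over such genes have no background beside them. The remaining runs of the 20 were of neither kind, among them those over SPAC57A7.05 (rank 5, above bsu1 and nmt1), tlh1 and pfl5. None of the 20 highest-ranking gained runs overlapped a thiamine-related gene or lay at the rDNA ends. The gained runs were instead AT-rich stretches with low input signal, as described further on. Values are log2 of the processed Cy3 signal relative to the array median, and differences are ON minus OFF on that scale.

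The bases before 6 of the 8 thiamine-repressed genes measured, those over which a highly ranked lost run lay, are shown because input was lower over them in ON, and those before grt1 and cmt2 because they lie in the highest-ranking gained runs. Each line gives the 200 bases before the annotated gene start, 5′ to 3′ on the strand of the gene, from RefSeq assembly ASM294v3. Capitals mark the motif TATATAA, searched on both strands.
thi2, chrII:3940326-3940525, plus strand: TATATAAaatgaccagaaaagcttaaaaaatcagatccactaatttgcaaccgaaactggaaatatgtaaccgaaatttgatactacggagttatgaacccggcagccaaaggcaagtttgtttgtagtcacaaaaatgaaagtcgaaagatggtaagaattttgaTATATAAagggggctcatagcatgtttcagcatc
nmt1, chrIII:1838215-1838414, plus strand: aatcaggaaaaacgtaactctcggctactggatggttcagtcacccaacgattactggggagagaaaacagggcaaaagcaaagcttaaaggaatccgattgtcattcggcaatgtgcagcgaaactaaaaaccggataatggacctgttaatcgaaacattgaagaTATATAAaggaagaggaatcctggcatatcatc
bsu1, chrI:3549834-3550033, plus strand: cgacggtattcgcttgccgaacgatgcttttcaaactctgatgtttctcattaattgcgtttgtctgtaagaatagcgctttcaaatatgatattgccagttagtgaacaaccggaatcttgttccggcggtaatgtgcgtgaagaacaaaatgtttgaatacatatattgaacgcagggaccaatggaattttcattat
thi9, chrI:1482219-1482418, plus strand: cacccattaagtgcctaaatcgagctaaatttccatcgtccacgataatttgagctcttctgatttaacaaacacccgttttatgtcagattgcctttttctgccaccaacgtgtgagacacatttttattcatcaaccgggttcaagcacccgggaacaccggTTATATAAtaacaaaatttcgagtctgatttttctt
pho4, chrII:447029-447228, minus strand: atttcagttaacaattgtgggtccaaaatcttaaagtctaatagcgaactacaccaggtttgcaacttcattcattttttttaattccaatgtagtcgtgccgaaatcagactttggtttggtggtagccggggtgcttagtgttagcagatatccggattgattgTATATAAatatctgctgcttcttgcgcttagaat
thi4, chrI:1589733-1589932, plus strand: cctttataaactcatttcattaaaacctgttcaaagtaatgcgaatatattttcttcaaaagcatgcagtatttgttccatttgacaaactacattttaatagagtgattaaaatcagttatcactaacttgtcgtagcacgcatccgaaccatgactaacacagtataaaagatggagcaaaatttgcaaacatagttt
grt1, chrII:51182-51381, minus strand: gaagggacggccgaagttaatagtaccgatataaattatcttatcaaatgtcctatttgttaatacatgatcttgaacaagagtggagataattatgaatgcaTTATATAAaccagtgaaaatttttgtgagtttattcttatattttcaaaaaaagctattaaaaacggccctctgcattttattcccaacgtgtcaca
cmt2, chrII:65552-65751, minus strand: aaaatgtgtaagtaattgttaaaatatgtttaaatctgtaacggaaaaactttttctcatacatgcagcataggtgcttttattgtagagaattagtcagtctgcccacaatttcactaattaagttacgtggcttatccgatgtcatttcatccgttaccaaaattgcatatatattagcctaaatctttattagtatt

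The motif was present in the windows of 5 of the 8 thiamine-repressed genes (thi2, nmt1, thi9, pho4 and SPBC530.07C, whose window is not printed), in that of grt1, and in 13.5% of 5112 windows of this length before protein-coding genes. It was not found before bsu1, thi4, SPCC18B5.05C or cmt2. In thi9 and grt1 it was found on both strands at overlapping positions, since the motif and its reverse complement share 6 letters here. The GC content of the 8 thiamine-repressed windows ran from 31% before thi4 to 42% before nmt1, against 31% before grt1 and 30% before cmt2. The median over all windows was 32.5%.

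Over thi2, which encodes the thiazole-forming enzyme of thiamine synthesis, the gene's mean input level was -0.84 in clr3-CDx2 ON and -0.093 in clr3-CDx2 OFF, and -1.16 in wt ON and -0.20 in wt OFF. Both ON arrays lay below both OFF arrays. The difference was -0.74 in clr3-CDx2 and -0.96 in wt. The gene ranked lowest of 4600 genes in each genotype taken by itself. In the limma fit of state with genotype as block, thi2 fell by 0.85 (SE 0.072, 4 probes, adjusted p = 0.0115). It was the only gene of 4600 (0.0217%) past an adjusted p of 0.05 on the lower side, and 0 genes passed on the higher side, with 64 (1.39%) and 96 genes at an unadjusted p under 0.05. By limma thi2 was not called without the genotype block (adjusted p = 0.193), without detrending (0.564), or when only genes with at least 5 probes were tested, which leaves it out. It was not called without clr3-CDx2 OFF (0.0631) or without wt OFF (0.0559).

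For nmt1, the pyrimidine-forming enzyme, both ON arrays likewise lay below both OFF arrays. Its level was -0.25 in clr3-CDx2 ON and 0.17 in clr3-CDx2 OFF, and -0.43 in wt ON and 0.26 in wt OFF. The difference was -0.42 in clr3-CDx2 and -0.69 in wt, rank 4 from the lowest in each, with an adjusted p of 0.220 by limma. For bsu1, a vitamin B6 importer repressed by thiamine, the level was -0.064 in clr3-CDx2 ON and 0.29 in clr3-CDx2 OFF, and -0.16 in wt ON and 0.31 in wt OFF. The differences of -0.35 and -0.46 had an adjusted p of 0.249. For pho4, the thiamine-repressible acid phosphatase, the level was -0.21 in clr3-CDx2 ON and 0.073 in clr3-CDx2 OFF, and -0.47 in wt ON and -0.0035 in wt OFF (differences -0.28 and -0.47). None of these 3 passed the test.

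The uptake genes and the remaining synthesis genes had the same sign. The thiamine transporter gene thi9 stood at -0.64 in clr3-CDx2 ON and -0.36 in clr3-CDx2 OFF, and at -0.84 in wt ON and -0.41 in wt OFF. SPCC794.03, annotated as a thiamine transporter, stood at -0.43 in clr3-CDx2 ON and -0.13 in clr3-CDx2 OFF, and at -0.60 in wt ON and -0.16 in wt OFF. For both genes the ON arrays were the lower ones in each genotype. The kinase gene thi201 differed by -0.27 in clr3-CDx2 and -0.29 in wt. The gene thi4, whose product couples the pyrimidine and thiazole parts, differed by -0.24 in clr3-CDx2 and -0.16 in wt.

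The list of thiamine-repressed genes has 8 measured members (nmt1, thi2, thi4, thi9, bsu1, pho4, SPBC530.07C and SPCC18B5.05C). All 8 had a mean difference below 0 in both genotypes, against 23.6% of all 4600 genes, and 3 of 8 (thi2, nmt1 and bsu1) were lower by at least 0.32 in both, the limit used for runs. These were the only 3 of all 4600 genes (0.0652%) past that limit, and 2 genes (0.0435%) were past it on the higher side. The list median was -0.28 in clr3-CDx2 and -0.45 in wt, beside -0.000104 and -0.0013 over all genes. The weakest members were SPBC530.07C, a TENA/THI family gene (-0.074 and -0.25), and SPCC18B5.05C, a phosphomethylpyrimidine kinase gene (-0.13 and -0.023). Of 48 probes in the list's genes, 41 (85.4%) were lower in both genotypes, against 23.2% of all probes, and neighbouring probes share sheared fragments.

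**Figure D1:**
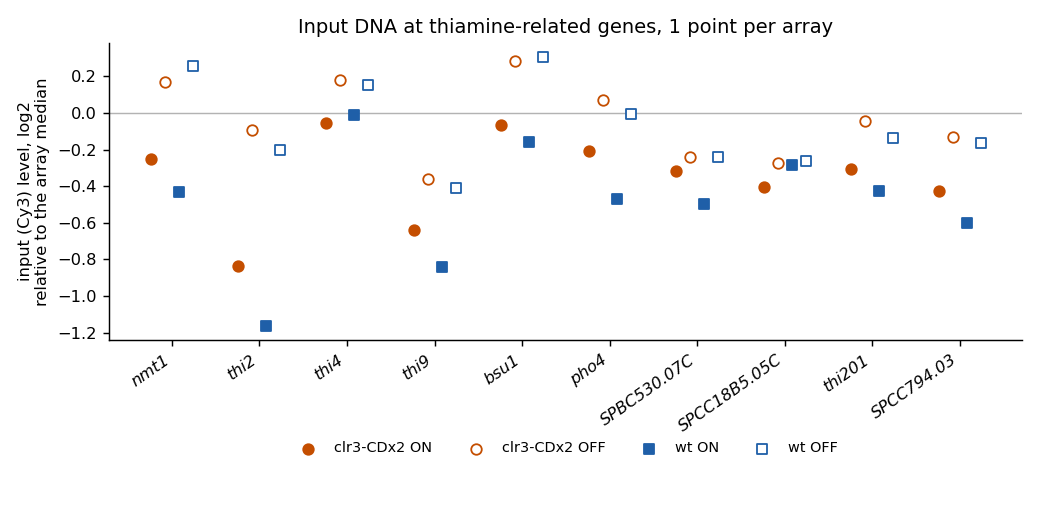
Input level of each gene (vertical axis, log2 of Cy3 signal relative to the array median, mean over the probes of the gene) on the 4 arrays, with clr3-CDx2 as circles, wt as squares, ON filled and OFF open. At thi2 the ON arrays stand at -0.84 and -1.16 and the OFF arrays at -0.093 and -0.20, while at SPCC18B5.05C the wt arrays stand at -0.29 and -0.26.

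Gene starts were placed on the array coordinates by matching input signal to base composition, and this placement varied between blocks of probes with an SD of 126.6 to 220.9 bp. Within 4 kb of the gene start, the probe with the lowest mean of the genotypes lay inside the gene for 6 of the 8 thiamine-repressed genes. For SPBC530.07C and SPCC18B5.05C it lay before the gene, at -2106 and -1703 bp. The same count over all genes was not made. Over all genes the difference was also lower inside the gene. It averaged -0.014 in clr3-CDx2 and -0.037 in wt at 600 bp, against 0.022 and 0.071 at -300 bp. At thi2 the probe with the lowest mean of the genotypes lay 449 bp after the gene start, with -0.79 in clr3-CDx2 and -1.16 in wt. Taken alone, clr3-CDx2 had its lowest value of -0.87 at 1049 bp. The 3 probes within 1 kb before the gene averaged -0.28 in clr3-CDx2 and -0.38 in wt. Those within 1 kb after it, also 3, averaged -0.35 and -0.35. The 12 probes more than 1.5 kb away averaged 0.092 and 0.0013. At nmt1 the probe lowest by that mean lay at 610 bp with -0.58 and -1.001, against -0.19 and -0.15 over 3 probes before the gene. At bsu1 it lay at 321 bp with -0.56 and -0.75, the lowest value of clr3-CDx2 alone being -0.61 at 21 bp, and the 4 probes after the gene averaged -0.0033 and 0.093. At pho4 the gene body averaged -0.28 and -0.47 and the 4 probes before it 0.28 and 0.19, so upstream and body differed in sign in both genotypes. Fragments were sheared to about 1000 bp, which limits how sharply a step can show.

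**Figure D2:**
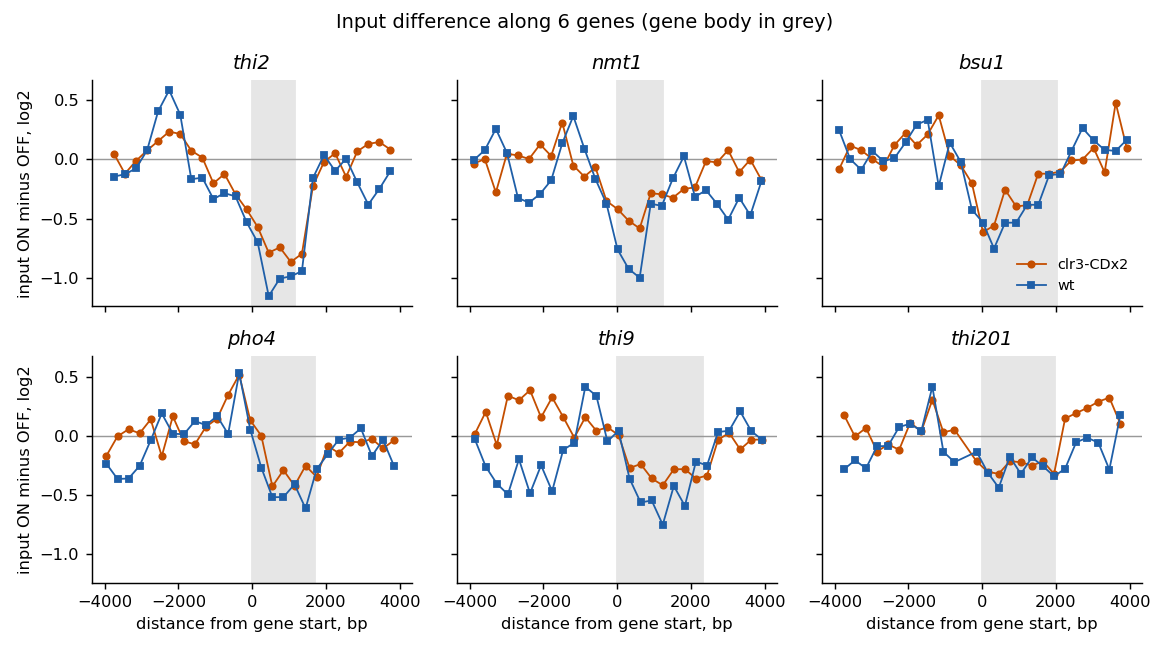
Input difference, ON minus OFF (vertical axis, log2), of each probe against its distance from the gene start in bp (positive into the gene, body in grey) for 6 genes, clr3-CDx2 as circles and wt as squares. The thi2 body averages -0.74 in clr3-CDx2 and -0.96 in wt. Before pho4 the probes average 0.28 and 0.19, while its body averages -0.28 and -0.47.

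The lost run over thi2 and its neighbour sec9 (chromosome II, array coordinates 3941101 to 3943860, 10 probes) was 1.42-fold lower in clr3-CDx2 and 1.56-fold lower in wt. The run over nmt1 (chromosome III, 1838701 to 1840860, 8 probes) was 1.28-fold and 1.43-fold lower. The run over bsu1 (chromosome I, 3550201 to 3552960, 10 probes) was 1.21-fold and 1.30-fold lower. A run of 11 probes in SPAC57A7.05 (chromosome I, 1535401 to 1538460), an uncharacterized gene with no place in the list, had a mean level of -0.19 in clr3-CDx2 ON and 0.15 in clr3-CDx2 OFF, and -0.28 in wt ON and 0.11 in wt OFF. Its differences of -0.35 (SD 0.092 over probes) and -0.38 (SD 0.13) had the smallest SDs among the 10 highest-ranking lost runs outside the rDNA ends.

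The immunoprecipitated channel (Cy5), which took no part in choosing the runs, went several ways at these genes. Over thi2 it differed by -1.34 in clr3-CDx2 and -1.01 in wt, and over nmt1 by -0.32 and -0.31. Over bsu1 it was higher, by 0.72 and 0.25, and over thi4 by 0.54 and 0.42. A lower input at an unchanged Cy5 signal gives a higher ChIP ratio by arithmetic alone.

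At the rDNA ends of chromosome III, the parts beyond the last protein-coding genes, input was lower in ON in both genotypes. Over 94 probes the mean level was 2.05 in clr3-CDx2 ON and 2.60 in clr3-CDx2 OFF, and 2.32 in wt ON and 2.72 in wt OFF. The difference was -0.55 (SD 0.26 over probes) in clr3-CDx2 and -0.40 (SD 0.31) in wt. Of these probes 92.6% were lower in both genotypes, against 23.2% of all probes of chromosomes I to III. The longest run at the left end (4201 to 9660, 19 probes) was 1.59-fold lower in clr3-CDx2 and 1.477-fold in wt, and the run at the right end (2437201 to 2445960, 21 probes, reaching SPCC569.01C) 1.38-fold and 1.31-fold. The left 25 kb of the chromosome averaged -0.60 and -0.44 over 59 probes, and the next 25 kb -0.12 and 0.00097 over 77 probes. Over all settings tried the mean ran from -0.60 to -0.20 in clr3-CDx2 and from -0.47 to -0.36 in wt. These repeats are present in many copies, and fewer copies per cell and poorer recovery of each copy cannot be told apart in these bulk extracts. The names of all 94 probes end in f or m, a mark that the labels do not explain.

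Probes at a level of at least 2 were also read elsewhere. At this level the difference averaged -0.66 in clr3-CDx2 and -0.46 in wt at the rDNA ends (70 probes, mean level 2.96). The other 289 such probes, with Tf2 elements left out and a mean level of 2.71, averaged -0.38 (SD 0.16) in clr3-CDx2 and 0.13 (SD 0.17) in wt. After scaling each array to an equal spread, the rDNA ends stood at -0.32 in clr3-CDx2 and -0.52 in wt. The other bright probes stood at -0.063 and 0.065.

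Mitochondrial DNA was the brightest class, at 3.78 in clr3-CDx2 ON and 4.67 in clr3-CDx2 OFF, and 4.59 in wt ON and 4.72 in wt OFF (48 of 61 probes used). The clr3-CDx2 ON array stood apart from the other 3. The difference was -0.90 (SD 0.18) in clr3-CDx2 and -0.13 (SD 0.19) in wt. In clr3-CDx2 it moved to -0.39 with equal spread and to -0.0030 with quantile normalization, which turned the wt difference to 0.0063. The clr3-CDx2 ON array had the narrowest spread of probe levels (SD 0.66, against 0.73 to 0.76 on the others), and the part of this spread in the result was not tested beyond these scalings.

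The Tf2 retrotransposons, the mobile elements of this genome, had opposite signs in the genotypes. Their 73 probes stood at 2.38 in clr3-CDx2 ON and 2.68 in clr3-CDx2 OFF, and at 2.98 in wt ON and 2.48 in wt OFF. The wt difference of 0.50 (SD 0.14) kept its sign under each alternative, from 0.34 to 0.56, whereas the clr3-CDx2 difference of -0.30 (SD 0.17) ran from -0.31 to 0.076. Centromeres (351 probes) differed by -0.12 (SD 0.27) in clr3-CDx2 and 0.23 (SD 0.20) in wt, and the clr3-CDx2 value turned to 0.00999 with quantile normalization and 0.024 without f and m probes. Subtelomeres, the outer 50 kb of chromosomes I and II (576 probes), differed by -0.0046 (SD 0.21) and 0.18 (SD 0.21). Of their probes 43.9% were higher in both genotypes, against 26.5% of all probes of chromosomes I to III. The mating-type region (63 probes) differed by -0.053 and -0.019, and probes near tRNA genes (241) by 0.15 and 0.075. All 40740 probes averaged 0.011 (SD 0.16) in clr3-CDx2 and 0.0096 (SD 0.22) in wt.

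**Figure D3:**
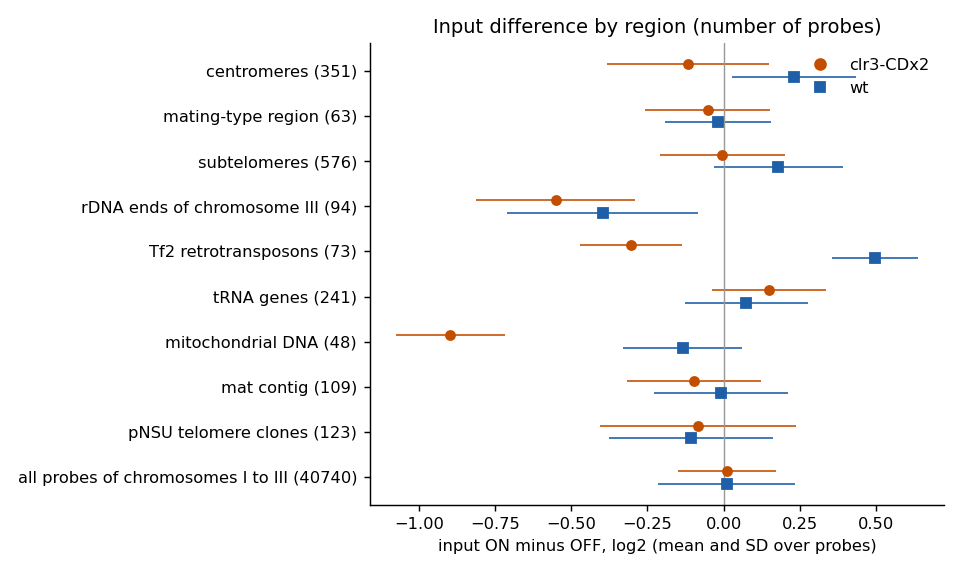
Mean input difference, ON minus OFF (horizontal axis, log2, bars are the SD over probes), for each region with its number of probes, clr3-CDx2 as circles above wt as squares. The rDNA ends lie below 0 in both genotypes (-0.55 and -0.40), and Tf2 elements lie on opposite sides (-0.30 and 0.50).

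Of the 45 gained runs higher by at least 0.32 in each genotype (3.22% of 1398 gained runs), all 45 had a mean level below 0. Their median level was -1.68, their GC content ran from 24.8% to 36.9% with a median of 28.7%, and 22 overlapped no protein-coding gene. They were short, with 3 to 6 probes, and 7 (15.6%) lay within 150 kb of an end of chromosome I or II, against 7.37% of all gained runs. The corresponding lost runs numbered 10 (1.09% of 919), of which 6 were at the rDNA ends and the others over thi2, nmt1, SPAC57A7.05 and SPCC794.03. The 6 are neighbouring pieces of the left end and the run at the right end, so they are not separate loci. No run reached 1.5-fold in both genotypes in either direction.

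The highest-ranking gained runs were longer, and 8 of the first 10 lay within 150 kb of an end of chromosome I or II, against the same 7.37% of all gained runs. The first, over cmt2, a catechol O-methyltransferase gene, and SPBPB21E7.05 (chromosome II, 64501 to 70260, 20 probes), stood at -0.37 in clr3-CDx2 ON and -0.56 in clr3-CDx2 OFF, and at -0.16 in wt ON and -0.50 in wt OFF. Its differences were 0.20 (SD 0.12) and 0.34 (SD 0.14). The run over grt1 (51001 to 54660, 13 probes) stood at -0.92 in clr3-CDx2 ON and -1.19 in clr3-CDx2 OFF, and at -0.65 in wt ON and -1.08 in wt OFF. The run over alr2 and aat1 (109501 to 112260, 10 probes), an alanine racemase and an amino acid transporter gene, differed by 0.25 and 0.45. Further runs of this group lay over SPBPB10D8.04C, pfl7 and, on chromosome I, SPAC977.17, at 0.20 to 0.25 in clr3-CDx2 and 0.32 to 0.43 in wt. The placement of genes was not checked close to the chromosome ends, so gene names there are less certain. Away from the ends, 5 probes over idi1, the isopentenyl diphosphate isomerase gene of sterol synthesis, stood at -1.60 in clr3-CDx2 ON and -2.13 in clr3-CDx2 OFF, and at -1.64 in wt ON and -2.18 in wt OFF. With equal spread and the GC trend removed together, the grt1 run differed by 0.12 and 0.28 and the idi1 run by 0.25 and 0.33.

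**Figure D4:**
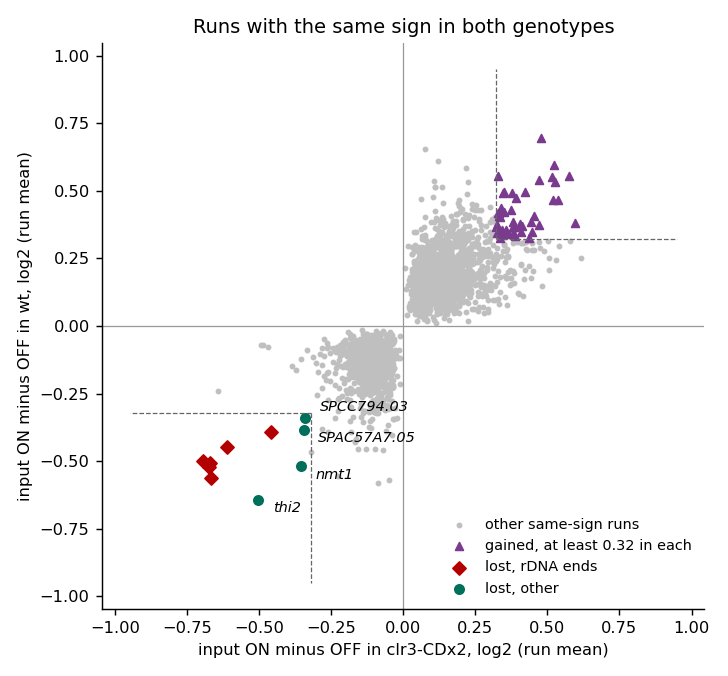
Mean input difference of each of the 2317 same-sign runs, ON minus OFF in clr3-CDx2 (horizontal axis, log2) against wt (vertical axis, log2), with dashed lines at 0.32 and -0.32. The 6 lost runs at the rDNA ends (diamonds) lie left of nmt1 and SPAC57A7.05 (circles), and the 45 gained runs (triangles) lie at 0.32 to 0.60 in clr3-CDx2 and 0.32 to 0.69 in wt.

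At the probe level limma called 113 of 41020 probes that fell (0.275%) and 337 that rose (0.822%). Of the 113, 50 lay at the rDNA ends (94 probes used), 23 in mitochondrial DNA (48 used) and 13 in the thiamine-repressed genes (48 used). Mitochondrial probes that fell numbered 11 with equal spread, 1 with normexp and 0 with quantile normalization. In the same settings 45, 12 and 23 fell at the rDNA ends, and 17, 11 and 11 in the thiamine-repressed genes. The 337 that rose had a median GC content of 27%, against 36.2% over all probes, and 291 of them had a level below -1, where 6.27% of all probes lie. Probes that rose included 12 in subtelomeres (576 used), 6 in centromeres (351 used) and 0 in Tf2 elements (73 used). With normexp background correction 13 probes rose and 41 fell, so the split turned towards the lower side. Quantile normalization gave 56 that rose and 96 that fell, and removal of the GC trend gave 50 and 66. The quantile fit gave all probes the same variance, so a probe's own disagreement between the genotypes did not enter its p-value. Leaving out 1 array and fitting state alone gave 2811 that rose and 2342 that fell without clr3-CDx2 ON, 94 and 47 without clr3-CDx2 OFF, 1317 and 650 without wt ON, and 18 and 33 without wt OFF.

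The highest mean difference of all 4600 genes was that of ubx4, a UBX domain protein gene (-0.010 in clr3-CDx2 and 2.41 in wt), where 1 of 5 probes was not well above background on wt OFF. Its other probes averaged -0.023 in clr3-CDx2 and 0.14 in wt. Further genes were ranked among those with at least 80% of probes of the same sign in each genotype. None of the 10 highest of these passed the test. They were led by SPAC1834.13, an uncharacterized gene (0.41 in clr3-CDx2 and 0.37 in wt), and mrpl39, a mitochondrial ribosomal protein gene (0.34 and 0.40, adjusted p = 0.303 by limma). Others were pha2 (phenylalanine synthesis, 0.21 and 0.39), eno102 (an enolase gene near the left end of chromosome II, 0.13 and 0.35) and SPBPB2B2.18 (0.20 and 0.42). Of the 10 lowest under the same condition, 7 were described above (thi2, nmt1, bsu1, pho4, SPCC794.03, thi9 and thi201). The others were snz1, a vitamin B6 synthesis gene that differed far more in wt (-0.72) than in clr3-CDx2 (-0.10), shm1, serine hydroxymethyltransferase (-0.13 and -0.39), and gpx1, glutathione peroxidase (-0.21 and -0.29). When the GC trend was removed and the spread equalized, a setting chosen after seeing the data, limma called 13 genes that fell. Among them were thi2, nmt1, bsu1, pho4, thi9, thi201, SPCC794.03, snz1, shm1 and gpx1. In the same fit 24 rose, ubx4 included. That fit gave all genes the same variance, so a gene's own disagreement between the genotypes did not enter its p-value. With either correction alone, limma called 1 gene that fell, thi2, and 0 that rose.

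Other gene groups were set beside the thiamine genes, counting members with at least 3 probes. The 18 (of 19 listed) glycolysis and fermentation genes had a median of 0.12 in clr3-CDx2 and -0.30 in wt, and 0 of 18 passed the test. Examples were pdc101, pyruvate decarboxylase (0.091 and -0.54, GC content 48.1%), and pgk1, phosphoglycerate kinase (0.12 and -0.46, 46.8%). The 7 translation elongation factor genes stood at 0.028 and -0.38, led by tef101 (0.054 and -0.49). The 57 (of 141) ribosomal protein genes stood at 0.017 and -0.16, with 20 of 57 lower in both genotypes (35.1%, against 23.6% of all genes). The 10 heat shock genes stood at 0.064 and -0.19 and the 5 (of 10) histone genes at 0.027 and -0.073. The stress response genes (10) stood at -0.0069 and -0.25, with lsd90 at 0.33 and -0.84 at a GC content of 52.9%. The phosphate genes (3) stood at 0.019 and -0.13, the purine synthesis genes (10) at 0.042 and -0.068, and the plasma membrane transporter genes (20) at -0.0047 and -0.046. The heterochromatin machinery genes (23) stood at -0.014 and 0.031, the reporter and marker genes (6) at 0.013 and -0.033, with ade6 at 0.13 and -0.042, and the subtelomeric genes (42) at -6.675e-05 and 0.15. No member of any of these lists passed the test. With the GC trend removed, the wt median of the glycolysis genes moved to -0.021 and that of the elongation factor genes to -0.062, while the thiamine-repressed genes ran from -0.60 to -0.34 over all settings tried in wt.

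Most of the input difference was not shared by the genotypes. Over 40740 probes, which share a slide and a probe design, the differences of clr3-CDx2 and wt correlated at r = 0.10, and 49.8% of probes had the same sign. In wt the difference followed base composition. Among 10 bins of probes, it averaged 0.20 (SD 0.20) in the bin with the lowest GC content (median 28%) and -0.22 (SD 0.20) in that with the highest (44.2%), with r = -0.51 over probes. In clr3-CDx2 these bins averaged 0.10 and 0.031. In clr3-CDx2 the difference followed the input level instead, at 0.20 in the dimmest bin and -0.13 in the brightest (r = -0.61), against 0.099 and 0.011 in wt (r = -0.10). The level holds the same arrays as the difference, so this relation is partly built in.

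**Figure D5:**
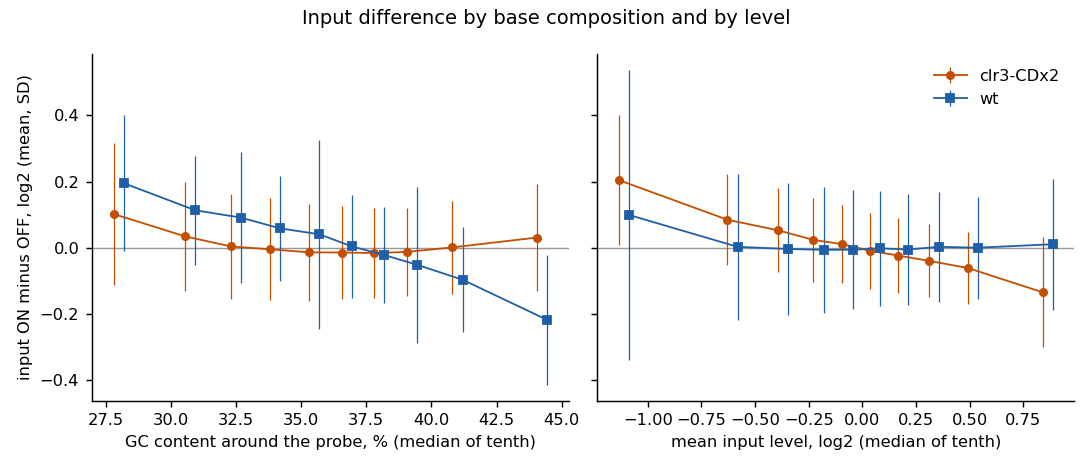
Mean input difference, ON minus OFF (vertical axis, log2, bars are the SD over probes), in 10 bins of probes ordered by GC content within 400 bp (left, %) and by mean input level (right, log2), clr3-CDx2 as circles and wt as squares. The wt line runs from 0.20 to -0.22 over GC content, and the clr3-CDx2 line from 0.20 to -0.13 over the level.

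Runs chosen in one genotype were read on the arrays of the other. A run was counted by its mean, and the share of all probes beside it by single probes, so the measures are unlike. At 1.5-fold, 5 lost runs of clr3-CDx2, all at the rDNA ends, were also lower in wt (5 of 5, mean -0.42, SD 0.14), and 47.5% of all probes were lower there. As pieces of the ends of 1 chromosome, these 5 are not separate loci. The single lost run of wt at 1.5-fold was higher in clr3-CDx2 (0.26), and of the gained runs 1 of 1 chosen in clr3-CDx2 and 2 of 3 chosen in wt were higher in the other genotype. At a limit of 0.32, 12 of 33 lost runs of clr3-CDx2 were lower in wt, and 27 of 88 lost runs of wt were lower in clr3-CDx2, beside 47.5% and 49.2% of all probes. Of the gained runs at that limit, 71 of 88 chosen in clr3-CDx2 were higher in wt and 85 of 98 chosen in wt were higher in clr3-CDx2, beside 52.5% and 50.8% of all probes. The agreement of lost runs at that limit varied with the processing. With equal spread, 8 of 12 chosen in clr3-CDx2 and 27 of 74 chosen in wt were lower in the other genotype. Quantile normalization gave 3 of 8 and 37 of 92, and removal of the GC trend gave 14 of 36 and 10 of 21. Both corrections together, a setting chosen after seeing the data, gave 7 of 10 and 12 of 14, of which 3 and 4 lay at the rDNA ends. Over these settings 47.8% to 50.5% of all probes were lower. On wt OFF, 4 spots were not well above background, and without them 84 of 96 gained wt runs were higher in clr3-CDx2.

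Runs of opposite sign in the genotypes were about as many as those of the same sign, 2062 against 2317. The other factor of the design, clr3-CDx2 against wt, gave 1983 runs with the same sign in both states, of which 0 gained and 2 lost ones reached 0.32 in each. By limma 0 genes rose and 0 fell for clr3-CDx2 against wt, with 88 and 50 at an unadjusted p under 0.05. Runs just inside the length limit (3 probes, 1168 runs) had median absolute differences of 0.11 in clr3-CDx2 and 0.15 in wt, and those just outside it (2 probes, 2240 runs) 0.10 and 0.13.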

How the data were processed

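The members, lists and rules were chosen with earlier results of these data known. Input DNA (Cy3) was read from 4 two-colour Agilent arrays with 60-mer probes about every 300 bp. The authors used Agilent Feature Extraction, version 12.0.3.1 per the file headers. The deposited intensity is the processed signal, background-subtracted and detrended by the authors per the file headers. The deposited flags of 0 or 1 (other) served to leave out spots. The deposited value table of log2 ratios of both channels was not used here. Of 42968 spots, 1417 controls and 531 outliers were left out, and 41020 probes were used. Median raw Cy3 signal was 13940.5 on clr3-CDx2 ON and 7071 to 7755 on the other arrays, over a local background of 37 to 43. The number of arrays limits the precision.

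Values are log2 of the processed signal minus the array median. The fits used limma 3.58.1 (R 4.3.3), state plus genotype, with Benjamini-Hochberg adjustment over all probes or all 4600 genes with at least 3 probes. With 1 array per group, 1 residual degree of freedom per feature was moderated across features, so p-values rest on the lack of agreement between genotypes and not on replicate cultures. The fits were tested on simulated data. Normexp (offset 50) ran on the median signals, since mean signals are not in the files, and differs in that from the plan.

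Array coordinates have no stated build. Genes of ASM294v3 were placed on them by matching input signal to GC content per chromosome arm (r 0.208 to 0.286, at most 0.062 elsewhere). Named runs are the 10 highest-ranking per direction. Named genes are the 10 highest and 10 lowest with at least 80% of probes of that sign in each genotype, all thiamine-repressed genes, and up to 4 members of each other list.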

Additional observations from a re-analysis of the deposited data

Results flagged for a closer look

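With 1 array per group, values that lie on opposite sides of 0 in the genotypes are given here, and the difference between the genotypes was not tested. All are input (Cy3) differences, ON minus OFF, on the log2 scale. Tf2 elements stood at -0.30 in clr3-CDx2 and 0.50 in wt. Centromeres stood at -0.12 in clr3-CDx2 and 0.23 in wt. Subtelomeres stood at -0.0046 and 0.18, and the clr3-CDx2 value ran from -0.034 (GC trend removed) to 0.056 (normexp). Of their probes 43.9% were higher in both genotypes, against 26.5% of all probes of chromosomes I to III. Of the gene lists, the median of the glycolysis and fermentation genes was 0.12 in clr3-CDx2 and -0.30 in wt, that of the translation elongation factor genes 0.028 and -0.38, that of the ribosomal protein genes 0.017 and -0.16, and that of the heat shock genes 0.064 and -0.19. The phosphate genes stood at 0.019 in clr3-CDx2 and -0.13 in wt, the histone genes at 0.027 and -0.073, the purine synthesis genes at 0.042 and -0.068, and the reporter and marker genes at 0.013 and -0.033. The heterochromatin machinery genes stood at -0.014 in clr3-CDx2 and 0.031 in wt. The subtelomeric genes stood at -6.675e-05 and 0.15.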

How the results depend on the processing

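No paired analysis was possible because each group is 1 array, apart from the fit itself, which has genotype as its block. The called gene, thi2, was lower in ON under each alternative processing of the values, from -0.90 to -0.77. Called probes were followed only as counts per direction, so their signs were not compared between settings. Values without a test changed sign for Tf2 elements in clr3-CDx2 and glycolysis genes in wt, as given below. They also did so for centromeres in clr3-CDx2 and mitochondrial DNA in wt (0.0063, quantile). The others were the pNSU telomere clone probes in clr3-CDx2 (-0.084, and 0.13 with quantile) and values smaller than these. Probes that rose numbered 151 (GC trend removed and equal spread, chosen after seeing the data), 50 (GC trend removed), 25 (no genotype block), 114 (intensity trend in eBayes), 13 (normexp) and 56 (quantile), against 337. Those that fell numbered 66 (GC trend removed), 24 (no block), 72 (intensity trend) and 41 (normexp), against 113. In the quantile and intensity trend fits a probe's own disagreement between the genotypes did not enter its p-value. With 1 array left out the counts were 18 to 2811 that rose and 33 to 2342 that fell. Genes that rose numbered 24 and those that fell 13 with GC trend and spread corrected together, in a fit with the same variance for all genes. Genes that fell numbered 0 with at least 5 probes (thi2 not tested), 0 without the block, 0 without detrending and 3 with the intensity trend. With 1 array left out, 0 to 283 genes rose and 0 to 372 fell, and these fits set 1 lone array against the others. No gained run reached 1.5-fold, but 1 did without detrending, and 1 lost run did with normexp. At a limit of 0.32 there were 45 gained and 10 lost runs. The gained became 14 (normexp), 6 (equal spread), 3 (quantile), 9 (GC trend removed), 4 (both corrections) and 9 (at least 5 probes). The lost became 33 (normexp), 4 (quantile), 5 (without f and m probes) and 5 (both corrections). In clr3-CDx2 the rDNA ends moved to -0.28 (equal spread) and -0.20 (quantile), Tf2 to -0.11 (normexp), 0.0032 (equal spread), 0.076 (quantile) and 0.020 (both), and mitochondrial DNA to -0.69 (normexp), -0.39 (equal spread) and -0.0030 (quantile). In wt Tf2 moved to 0.34 (both). The wt medians moved for glycolysis genes to 0.0021 (both) and -0.021 (GC trend removed), for elongation factor genes to -0.077 and -0.062, for heat shock genes to -0.010 and -0.034, and for ribosomal protein genes to -0.017 (both). In clr3-CDx2 elongation factor genes moved to 0.17 without f and m probes and histone genes to 0.19 with at least 5 probes. The causes were not tested. Without f and m probes no probe is left at the rDNA ends. The limits of depth are those of 1 array per group, since nearly all spots stood well above background.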
